A study of Mus musculus with 6 samples.

Results

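Kallikrein-related peptidases are secreted serine proteases encoded by neighbouring genes, and 8 of them (Klk14, Klk13, Klk11, Klk10, Klk9, Klk8, Klk7 and Klk6) were followed in RNA-seq libraries of mouse hippocampus. They are 8 of the 37315 genes in the count files. They were chosen as brain kallikreins, with results of these data known: Klk14 was selected on its read counts in the Nestin-Cre library and its control, where its level was so much higher in the former, Klk6 as an oligodendrocyte gene and Klk8 as a gene of hippocampal neurons. All libraries came from the hippocampus of C57BL/6J mice at 4 weeks of age, and each of the 6 groups had 1 library. In the first experiment, Prrc2a flox/flox (f/f) mice were compared with Prrc2a flox/flox; nestin-cre mice, in which a transgene expresses Cre in neural progenitors and the cells they give rise to. In the second, f/f mice were compared with Prrc2a flox/flox mice carrying Olig2-cre, in which Cre follows the Olig2 promoter of the oligodendrocyte lineage and of some neuronal progenitors. In the third, WT mice were compared with Fto Tg mice, which carry a lentiviral Fto transgene under the ubiquitin C promoter, a promoter active in most cell types. The f/f controls are named f/f (Nestin) and f/f (Olig2) after their experiments. Neither carried Cre, so Cre expression itself was not controlled for in these libraries. The paper states that Cre under the endogenous Olig2 promoter caused haploinsufficiency of Olig2. The f/f (Olig2) control lacked this, so the Olig2-Cre pair differed in Olig2 dosage as well as in Prrc2a. Whether tissue of several mice was pooled was not given in the sources used here. Prrc2a binds RNA that carries N6-methyladenosine (m6A), and Fto removes this mark.

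Kallikreins are made as inactive precursors that are activated by cleavage, often by another kallikrein. The active enzymes cut matrix and adhesion proteins, growth factors and protease-activated receptors, and they are held in check by serpins, alpha-2-macroglobulin and Kazal-type inhibitors. In the nervous system KLK6 is best known from oligodendrocytes and from its cleavage of myelin basic protein, and KLK8 (neuropsin) from hippocampal neurons and synaptic plasticity, whereas KLK14, KLK7 and several others are best known from the shedding epidermis.

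The 8 genes lay in a row on the plus strand of chromosome 7, over 142 kb (GRCm38, GENCODE M21), in the order Klk14, Klk13, Klk11, Klk10, Klk9, Klk8, Klk7 and Klk6. Klk14 opened the row at chr7:43690418-43695536 and Klk6 closed it at chr7:43824499-43832030. Klk8 lay between them at chr7:43797577-43803826. On the minus strand, the annotated processed transcript 2310002F09Rik ran from chr7:43695209-43797958 and covered 287 exon bases of Klk14 (22.6% of its 1271 exon bases) and 382 of Klk8 (24.8% of 1540). This transcript was not among the gene identifiers in the files, and counting was not stranded, so reads from it cannot be told apart from reads of Klk14 or Klk8 over these stretches.

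The 250 bases before the annotated starts of Klk14 and Klk8 are shown because these had the most counts over the 6 libraries. Klk14 reached this only through the Nestin-Cre experiment. With library totals both genes also differed, in opposite directions, in the Nestin-Cre pair, the pair that chose Klk14. The log2 ratio of Klk8 there was -1.57, but correcting ratios for GC content and length left -0.06. Nothing about direction is therefore read from these stretches, and a link between them and the ratios was not tested. Capitals mark GGGCGG, searched on both strands together with TATAAA and CCAAT. Coordinates are chr7:43690168-43690417 for Klk14 and chr7:43797327-43797576 for Klk8, both on the plus strand (RefSeq, GRCm38.p6).
Klk14: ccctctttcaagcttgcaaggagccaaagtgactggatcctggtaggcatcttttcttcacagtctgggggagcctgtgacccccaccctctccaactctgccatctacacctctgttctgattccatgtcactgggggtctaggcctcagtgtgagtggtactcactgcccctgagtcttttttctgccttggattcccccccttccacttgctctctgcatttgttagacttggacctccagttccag
Klk8: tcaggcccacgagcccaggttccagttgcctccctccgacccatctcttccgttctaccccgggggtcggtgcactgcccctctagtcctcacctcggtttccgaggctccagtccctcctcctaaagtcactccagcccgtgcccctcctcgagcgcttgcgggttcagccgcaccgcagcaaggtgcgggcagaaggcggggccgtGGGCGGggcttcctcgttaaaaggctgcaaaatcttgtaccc
The Klk14 stretch held none of the 3 motifs and no CG dinucleotide, and its GC content was 53.6%. The Klk8 stretch held 1 GGGCGG and 18 CG dinucleotides, at a GC content of 65.2%. Of 32851 promoter stretches of this length, 32.7% held GGGCGG, 12.4% TATAAA and 33.8% CCAAT, and the medians were 52.4% GC and 6 CG dinucleotides. In the annotation, the coding sequence of Klk14 began at base 2 of its transcript, so the start of transcription may lie further upstream than the annotated start.

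The pentamer GGACT, a form of the sequence in which m6A is placed, is shown for the coding sequences of Klk14, Klk13 and Klk11. Klk14 and Klk13 were picked for intervals above 0 in the Nestin-Cre pair, the pair that chose Klk14. Nothing about direction can therefore be read from this choice. Windows of 21 bases on the transcript strand follow, with GGACT in capitals and T in place of U (GENCODE M21).
Klk14, base 417: cagcccagGGACTccctgccg
Klk14, base 589: ggcgggaaGGACTcctgtcag
Klk13, base 813: gggggaaaGGACTcctgtgag
Klk11, base 821: gagggcaaGGACTcctgtcag
The last 3 windows share GGACTcctgt, and the log2 ratio of Klk11 in the Nestin-Cre pair was -1.19. Klk13 also held GGACT in its coding sequence at bases 240 and 272. Those windows lack the shared stretch and are not shown. Klk14 had 2 GGACT in all, Klk13 3 and Klk11 1, all within the coding sequence. Klk6 had 3, of which 2 were coding, and Klk9 had 3, of which 1 was coding. Both genes had log2 ratios below 0 in the Nestin-Cre pair with library totals. Klk8 had 2, at bases 447 and 1263 of the transcript, neither of them wholly within the coding sequence. Klk14 had 1.57 per kb, Klk6 2.15 and Klk9 2.03. The median of 1071 coding transcripts of 1000 to 1600 bases was 1.32 per kb. Of these transcripts, 81.8% held at least 1 GGACT and 58.5% held at least 1 in the coding sequence. The letters are no measurement of the mark, and a link between them and the ratios was not tested.

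Total counts ranged from 18616540 to 35482589 per library, and levels are given as counts per 1000000 counted reads (CPM) with a Wilson 95% interval. The intervals cover counting error only, since PCR copies are not independent molecules and no group had a second library. Prrc2a was at 434 CPM in f/f and 184 CPM in the Nestin-Cre library. Its log2 ratio there was -1.24, where the median of all genes was -0.72 and 31.9% of tested genes had a lower ratio. In the Olig2-Cre pair Prrc2a was at 389 and 346 CPM (log2 ratio -0.17, not called by the read test described with Klk14). Fto was at 158 CPM in WT and 354 CPM in Fto Tg. The Nestin-Cre library stood apart from the other 5: mitochondrial genes held 26.2% of its counts against 7.97% to 8.86%, and the mean GC content of its counted transcripts was 45.7% against 48.5% to 49.2%. The median log2 ratio of all genes in that pair was -0.72 with library totals, -0.04 with TMM scaling and 0.00 with DESeq2 size factors. The part of library quality in the Klk values of that library was not tested. In whole tissue, fewer cells of a type and less RNA per cell cannot be told apart.

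Klk14, a trypsin-like kallikrein that can activate other kallikreins, was counted 10932 times in the Nestin-Cre library and 497 times in its f/f control. In the other libraries it was counted 23 times in f/f (Olig2), 19 times in Olig2-Cre, 31 times in WT and 45 times in Fto Tg. In the Nestin-Cre library this was 314 CPM (309 to 320), which made Klk14 the gene of rank 396 by CPM. Its f/f control held 14.01 CPM (12.8 to 15.3), at rank 9178. The remaining 4 libraries held 0.792 to 1.29 CPM, with intervals that overlapped between neighbours in the order. The order was thus Nestin-Cre, its own f/f control, then the others, and both steps were wider than the counting intervals.

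The Nestin-Cre pair gave a 22.4-fold higher level (log2 ratio 4.49, 4.36 to 4.62), which is a description since this value chose the gene. By log2 ratio Klk14 ranked 13 among 16067 genes with at least 10 counts in the Nestin-Cre library. The 12 genes above it had at most 13 counts in f/f, and 9 of them had none. It was therefore the largest rise by this measure only among genes with more than 13 control counts. Against f/f (Olig2) the log2 ratio was 8.60.

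**Figure D1:**
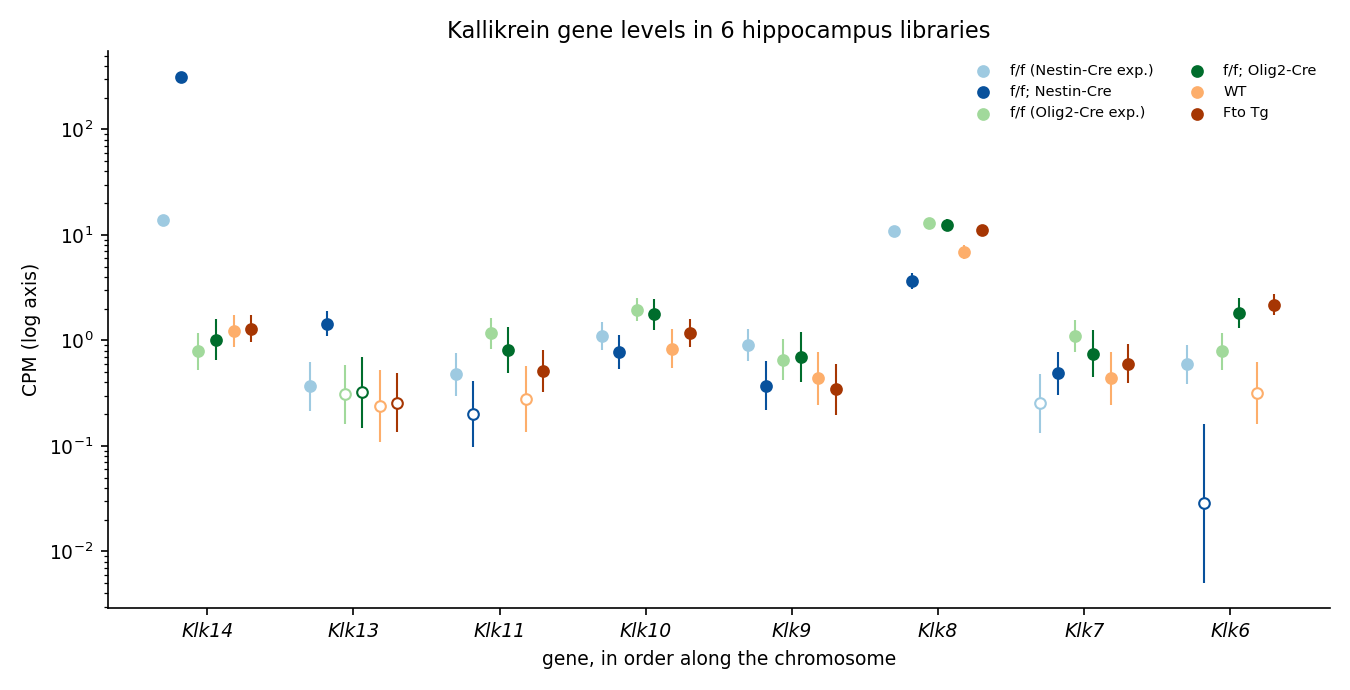
Level of each kallikrein gene (CPM, log axis) in each of the 6 libraries, with Wilson 95% intervals from counting error only. Open points have fewer than 10 counts. Klk14 spans 0.792 to 314 CPM, while Klk8 stays between 3.65 and 13.1 CPM.

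The f/f (Nestin) control itself differed from the other controls in Klk14. The question here is how far 3 libraries without deletion or transgene differ. Pairs of libraries were compared with the read test of the study (the MARS formulas of DEGseq), and a gene was called at a false discovery rate below 0.001 and a fold of at least 1.2. With 1 library per group, such a call is about a pair of libraries, not about genotypes. Klk14 was called higher in f/f (Nestin) than in f/f (Olig2), by 17.3-fold (11.5 to 26.2), and than in WT, by 11.2-fold (7.82 to 16.1). The difference between f/f (Olig2) and WT did not pass the test (log2 ratio -0.63, -1.40 to 0.14). The 3 controls averaged 5.34 ± 7.51 CPM (SD, n = 3). The f/f (Nestin) library also belongs to the pair that chose the gene. Its Klk14 CPM was 4.45% of that in the Nestin-Cre library. Whether reads passed between these libraries of 1 experiment was not tested, so the f/f (Nestin) level, and each ratio that uses it, carries this limit.

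Klk14 did not pass the test in the Olig2-Cre pair (log2 ratio 0.37, -0.49 to 1.24) or in the Fto pair (0.06, -0.59 to 0.72). The intervals leave room for a change of up to 2.36-fold in the first and 1.64-fold in the second. At 19 to 45 counts, smaller differences were not detectable at this depth.

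The mix of kallikreins differed with Klk14. It made up 97.8% of the counts of the 8 genes in the Nestin-Cre library and 49.0% in its control, and 3.99% to 11.5% in the other libraries. Per kb of exon, Klk14 stood at 104 times the level of Klk8 in the Nestin-Cre library, at 1.56 times in its control and at 0.0733 to 0.216 times elsewhere. Without Klk14, the remaining 7 genes summed to 6.96 CPM in the Nestin-Cre library, which was the lowest of the 6 libraries, against 14.6 CPM in its control.

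Klk13, which lies next to Klk14 and is a trypsin-like kallikrein of stratified epithelia, was counted 13 times in f/f and 50 times in the Nestin-Cre library. It was counted 9, 6, 6 and 9 times in f/f (Olig2), Olig2-Cre, WT and Fto Tg, all of which are low counts. The Nestin-Cre library held 1.44 CPM (1.09 to 1.90) and the other 5 held 0.238 to 0.366 CPM with overlapping intervals. The log2 ratio in the Nestin-Cre pair was 1.93 (1.07 to 2.80), given as a description.

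Genes around Klk14 did not share one direction. On the upstream side, Ctu1, a tRNA thiolation enzyme whose gene starts 18.4 kb before Klk14, was at 8.79 CPM in f/f and 1.47 CPM in the Nestin-Cre library (log2 ratio -2.57, called lower), and at 7.26 to 9.46 CPM in the other libraries. Siglece, a sialic acid receptor of myeloid cells, was at 0.648 and 1.04 CPM in the same pair and was not called. Zfp719 was at 19.7 and 14.8 CPM (log2 ratio -0.41, called lower with library totals but above the median of -0.72 for all genes in that pair). Zfp819 and Ceacam18 had at most 5 counts in any library. On the downstream side, Klk12 had 12 counts in f/f and 15 in the Nestin-Cre library. None of the neighbours on either side with at least 10 counts over the pair was called in the Olig2-Cre or Fto pair. Over all genes, 11.9% and 15.5% were called in these pairs.

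**Figure D2:**
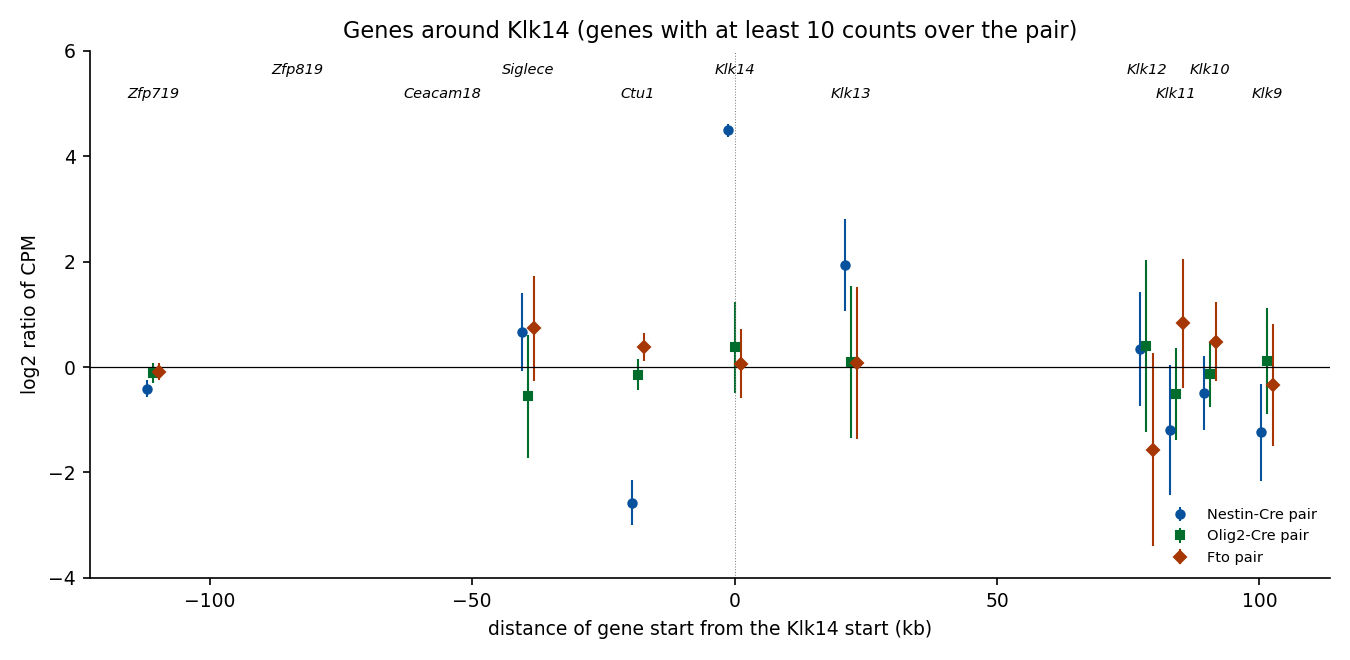
Log2 ratio of CPM in the 3 pairs against the distance of each gene's start from that of Klk14 (kb), for Klk14 and the 5 genes on each side. Bars are 95% intervals from counts, points of a gene are shifted sideways for visibility, and genes with under 10 counts over a pair have no point. In the Nestin-Cre pair Klk14 is at 4.49 and Klk13 at 1.93, while Ctu1 is at -2.57.

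Of the other kallikreins, 18 of 19 listed genes were in the files, 10 had no count in any library, and Klk12 alone reached 10 counts in a library. Klk12 had 12, 15, 6, 5, 7 and 3 counts in f/f (Nestin), Nestin-Cre, f/f (Olig2), Olig2-Cre, WT and Fto Tg. The others had at most 3 counts in any library, and the glandular gene Klk1 had 3 in both libraries of the Nestin-Cre pair.

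Klk6 was low in every library and was highest in Fto Tg. It was counted 21 times in f/f and 1 time in Nestin-Cre, 23 times in f/f and 34 times in Olig2-Cre, and 8 times in WT and 76 times in Fto Tg. Fto Tg (2.18 CPM, 1.74 to 2.73) and Olig2-Cre (1.83 CPM, 1.31 to 2.55) overlapped in their intervals and lay above the 3 controls, which averaged 0.567 ± 0.238 CPM (SD, n = 3). Nestin-Cre was the lowest, at 0.0288 CPM (0.00508 to 0.163).

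Klk6 rose by 6.50-fold in the Fto pair (log2 ratio 2.70, 1.68 to 3.72). Across all genes 15.5% were called in this pair, 6.97% higher and 8.51% lower, and Klk6 was 1 of 2 members called. The WT library had the lowest Klk6 of the controls, at 8 counts. Against f/f (Olig2), where 19.2% of all genes were called, the log2 ratio of Klk6 was 1.44 and it was still called, and it was also called once ratios were adjusted for GC content and length, where 9.22% were. An edgeR exact test used a common dispersion for all genes, estimated from the 3 controls (biological coefficient of variation 0.146). It called 27 genes in this pair, 0.150% of those tested, and Klk6 was the member among them. The control spread of Klk6 itself (SD of log2 CPM 0.64, n = 3) was not used in its place. In the Olig2-Cre pair Klk6 was 2.29-fold higher (log2 ratio 1.19, 0.44 to 1.95) and did not pass the test. Against f/f (Nestin) in place of its own control, where 19.8% of all genes were called, the Olig2-Cre library was called higher in Klk6 (1.61) and lower in Klk14 (-3.74). In the Nestin-Cre pair the log2 ratio was -3.81 (-6.20 to -1.42), which with 1 count in the Nestin-Cre library is a 2.68- to 73.5-fold lower level, given as a description.

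Other oligodendrocyte genes did not follow Klk6 in every pair. In the Fto pair 6.97% of all genes were called higher and 8.51% lower. Of 18 oligodendrocyte genes, 5 rose and none fell in that pair, with a median log2 ratio of 0.21 against -0.01 for all genes. Among these were Opalin at 0.43, the myelin enzyme Cnp at 0.33 and the myelin adhesion molecule Mag at 0.31. In the Olig2-Cre pair 11 of 18 fell and none rose (median -0.29 against -0.0031, and 11.9% of all genes were called, 4.95% higher and 6.91% lower), with Aspa at -0.79, Ermn at -0.69, the transcription factor Myrf at -0.64 and Mobp at -0.54. The summed level of the 18 genes went from 9018 to 7144 CPM in that pair, in which Klk6 went from 0.792 to 1.83 CPM. It went from 10352 to 11939 CPM in the Fto pair. In the Nestin-Cre pair 14 of 18 fell and 1 rose, where 53.4% of all genes were called lower and 11.5% higher. The median there was -1.05 against -0.72 for all genes, and the sum was 10223 and 6948 CPM.

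**Figure D3:**
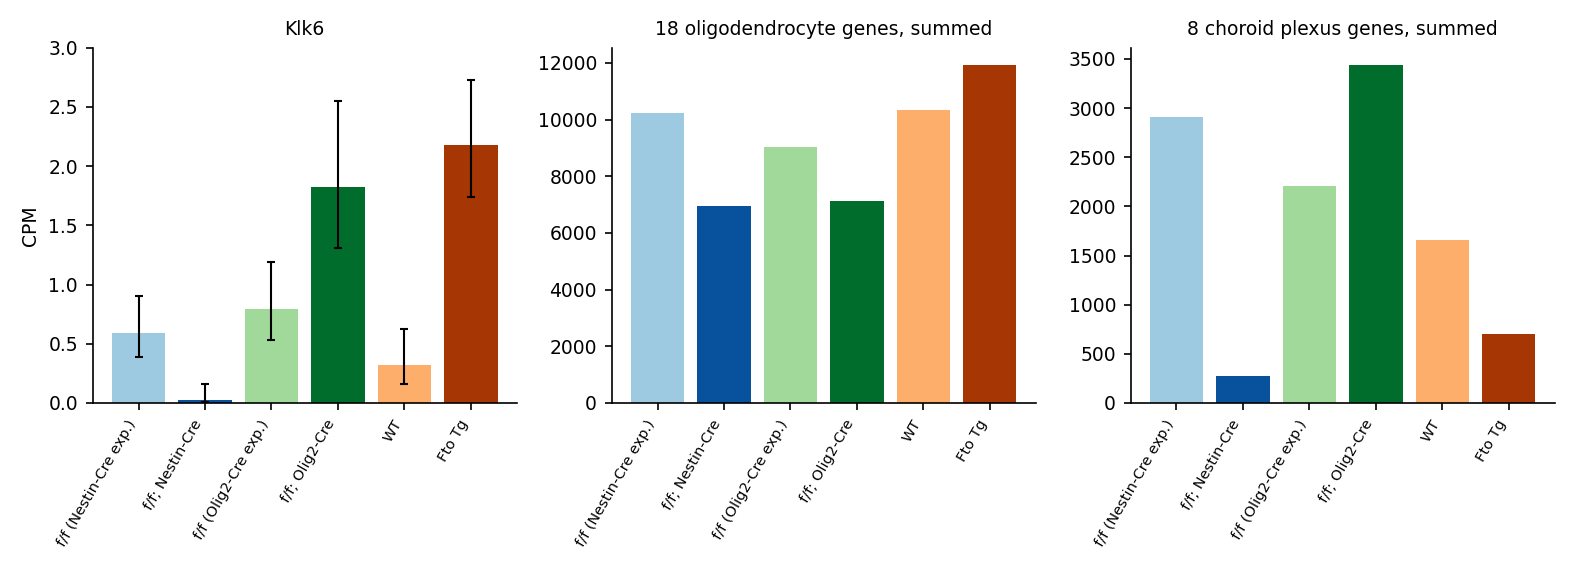
Klk6 with Wilson 95% intervals, the sum of 18 oligodendrocyte genes and the sum of 8 choroid plexus genes, each in CPM by library. In the Olig2-Cre pair Klk6 goes from 0.792 to 1.83 CPM while the oligodendrocyte sum goes from 9018 to 7144 CPM.

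Klk8 was the most abundant member per kb in the 4 libraries outside the Nestin-Cre pair. It was counted 386 times in f/f and 127 times in Nestin-Cre, 380 and 232 times in the Olig2-Cre pair, and 174 times in WT and 389 times in Fto Tg. In CPM this was 10.9, 3.65, 13.1, 12.5, 6.90 and 11.1 in that order. Nestin-Cre and WT were the low libraries, and the intervals of the other 4 overlapped between neighbours in the order.

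Klk8 was called higher in the Fto pair, by 1.61-fold (log2 ratio 0.69, 0.43 to 0.95). WT was the low side of that difference: both f/f libraries were called higher than WT too, by 1.57-fold and 1.89-fold, and Fto Tg lay within the control range of 6.90 to 13.1 CPM (mean 10.3 ± 3.13, SD, n = 3). Against f/f (Olig2) the log2 ratio of Fto Tg was -0.23 and was not called, and neither the ratio adjusted for GC content and length (0.44) nor the edgeR exact test called it in the Fto pair. In the Olig2-Cre pair the log2 ratio was -0.07 (-0.31 to 0.17), not called. In the Nestin-Cre pair it was -1.57 (-1.86 to -1.28), and -0.06 after adjustment for GC content and length.

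For comparison, the sum of 12 hippocampal neuron genes lay between 5392 CPM in WT and 6265 CPM in f/f (Nestin). Of the 12, 4 rose and 2 fell in the Fto pair, beside 6.97% and 8.51% of all genes. Those that rose included Itpka (0.70), Fibcd1 (0.51) and Nrgn (0.40). In the Olig2-Cre pair 2 rose and 1 fell, beside 4.95% and 6.91% of all genes.

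Klk7, Klk9, Klk10 and Klk11 were counted 7 to 57 times in each library. None was called in the Olig2-Cre or Fto pair, beside 11.9% and 15.5% of all genes. Klk7, a chymotrypsin-like enzyme that cuts desmosome proteins of the skin, had 9, 17, 32, 14, 11 and 21 counts in f/f (Nestin), Nestin-Cre, f/f (Olig2), Olig2-Cre, WT and Fto Tg. The 2 f/f libraries differed more than any altered library did from its own control, by 4.18-fold, and this difference was called. Klk11 had 17, 7, 34, 15, 7 and 18 counts in the same order, and f/f (Olig2) was called 3.99-fold higher than WT. Klk10 had 39, 27, 57, 33, 21 and 41 counts, and Klk9 had 32, 13, 19, 13, 11 and 12. The intervals of neighbours in the order of libraries overlapped for each of these 4 genes.

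Across the 8 members, all of which had at least 10 counts over each pair, 0 were called in the Olig2-Cre pair, where 11.9% of all genes were called, and 2 in the Fto pair. The median log2 ratio was 0.01 in the Olig2-Cre pair (all genes -0.0031) and 0.46 in the Fto pair (all genes -0.01). In the Nestin-Cre pair 2 of 8 were higher and 2 lower by the same rule, beside 64.9% of all genes (11.5% higher and 53.4% lower), and nothing is read from this since the pair chose Klk14. The member median there was -0.84, and -0.72 for all genes. By sign alone, 7 of 8 members had a ratio above 0 in the Fto pair, but 7 of 8 were also above 0 in each comparison of an f/f library with WT. These 3 comparisons share the WT library, which was the lowest of the 3 controls for 6 of 8 members, beside 33.1% of all genes. Fto Tg lay inside the range of the 3 controls for 6 of 8 members and Olig2-Cre for 7 of 8. Over all genes, 58.2% and 59.0% lay outside it. The upper end of the Klk14 range was f/f (Nestin), from the pair that chose the gene, and most other members had few counts. Nothing is therefore read from this comparison.

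Among the controls themselves, 1 member was called higher and 1 lower between the 2 f/f libraries (13.1% of all genes called, 7.01% higher and 6.11% lower), 2 were higher in f/f (Nestin) than in WT (17.3% called, 8.92% higher and 8.38% lower), and 2 were higher in f/f (Olig2) than in WT (7.20% called, 3.99% higher and 3.21% lower). Klk6 was not called in any of these 3 comparisons.

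**Figure D4:**
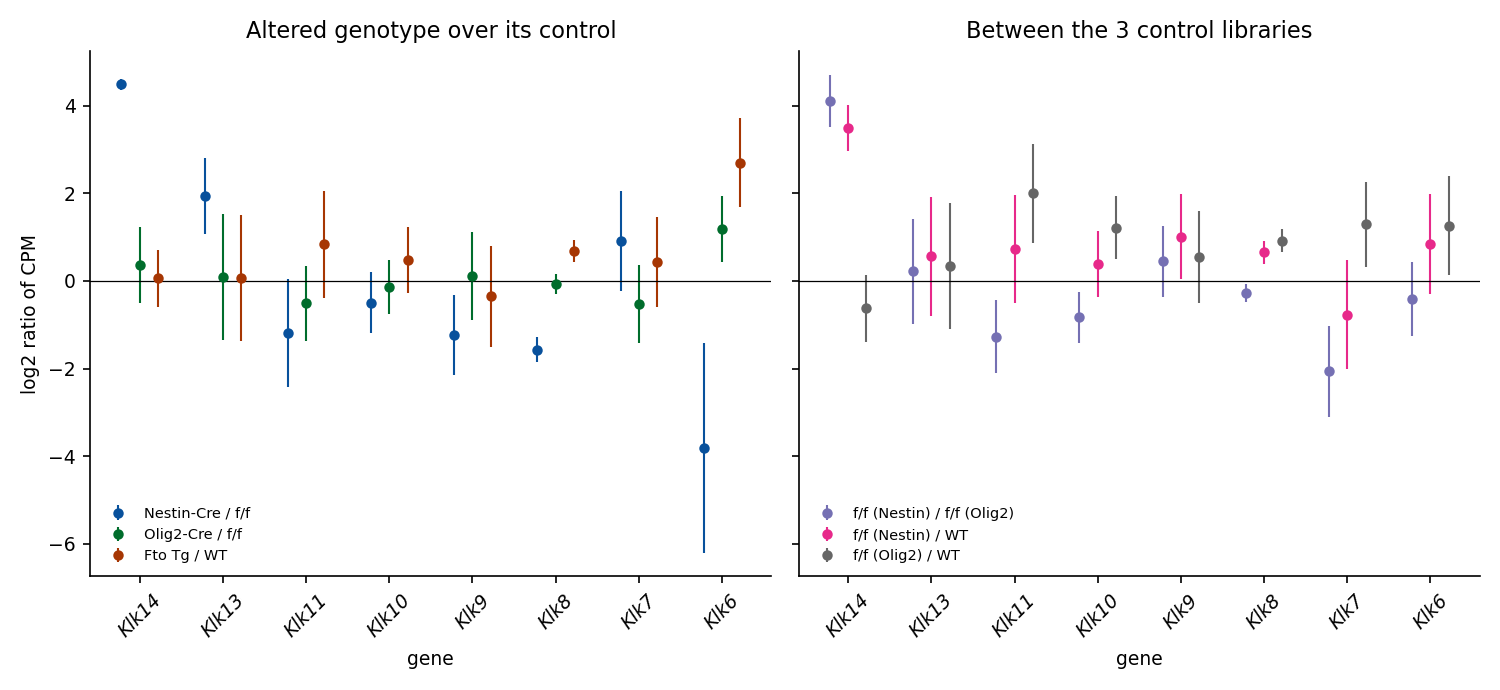
Log2 ratio of CPM for each gene with 95% intervals from counts, on the left for each altered genotype over its control and on the right between the 3 control libraries. The Klk14 ratio between controls is 4.11 for f/f (Nestin) over f/f (Olig2) and -0.63 for f/f (Olig2) over WT. In the Nestin-Cre pair, which shares f/f (Nestin), it is 4.49. No control ratio of Klk6 reaches its 2.70 in the Fto pair.

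The partners of these proteases were followed in lists. Over all genes, 11.9% were called in the Olig2-Cre pair and 15.5% in the Fto pair. Of the receptors, F2r (the thrombin receptor) was at 5.24 and 4.14 CPM in the Nestin-Cre pair, 6.65 and 5.96 CPM in the Olig2-Cre pair, and 7.46 and 7.11 CPM in the Fto pair. None of the 3 receptors tested in the Olig2-Cre pair and none of the 6 tested in the Fto pair was called. Of 7 inhibitors tested, none was called in the Olig2-Cre pair. Those that rose in the Fto pair were the serpins Serpina3n (log2 ratio 0.50) and Serpinb6a (0.30), and those that fell were A2m, which encodes alpha-2-macroglobulin (-0.61), and the neuronal serpin Serpini1 (-0.33). Serpina5 and Wfdc12 had no count in any library, and Spink5 had 1 count in Nestin-Cre and none in the others. Of 9 substrates tested, Mbp (-0.28) and Erbb4 (-0.32) fell with Olig2-Cre. With the Fto transgene Mbp (0.29) and the synaptic receptor Ephb2 (0.29) rose while Erbb4 (-0.62) and the adhesion molecule L1cam (-0.36) fell. Of the other serine proteases, Htra1 alone was called, higher in both pairs (0.39 and 0.38), out of 9 and 10 tested.

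Markers of other tissues that express kallikreins or could enter a dissection were also followed. The 14 skin epithelium genes summed to 18.3 CPM in the Nestin-Cre library, the lowest of the 6, and to 34.1 to 44.0 CPM in the others. The 10 gland genes summed to 20.4 to 26.1 CPM. Of the 4 gland genes tested in the Nestin-Cre pair, 1 was called higher and 1 lower. The former was the mucin gene Muc19, at 1.01 CPM in f/f (Nestin) and 3.91 CPM in Nestin-Cre (log2 ratio 1.93, 1.41 to 2.46). Of 11 skin genes tested in that pair, 4 were called lower and none higher, beside 53.4% lower and 11.5% higher over all genes. The median log2 ratio of the skin genes was -0.41, against -0.72 for all genes. Of both lists, Krt10 was called higher (0.59) and Amy1 lower (-0.42) in the Fto pair, and none in the Olig2-Cre pair. Over all genes, 15.5% and 11.9% were called in these pairs. The 8 choroid plexus genes ranged from 279 CPM in the Nestin-Cre library to 3442 CPM in Olig2-Cre. They summed to 2907 CPM in f/f (Nestin), 2208 CPM in f/f (Olig2), 1662 CPM in WT and 697 CPM in Fto Tg. All 8 were called lower in the Fto pair (median log2 ratio -1.28), where 8.51% of all genes were called lower and Klk6 and Klk8 were higher. All 8 were also called lower in the Nestin-Cre pair (median -2.05), where 53.4% of all genes were. Klk6 and Klk8 were lower in that pair with library totals. In the Olig2-Cre pair 4 choroid plexus genes were higher and 1 lower, beside 4.95% and 6.91% of all genes. Ttr, the transport protein that defines this epithelium, had a log2 ratio of 0.67 in Olig2-Cre and -1.25 in Fto Tg. The 6 olfactory and pituitary genes summed to 0.230 to 6.13 CPM, with Omp, S100a5 and Gh called in both pairs. The part of tissue content in the Klk values was not tested.

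Genes with the most similar pattern over the 6 libraries were ranked by Euclidean distance between centred log2(CPM + 0.1) values among 15602 genes, as a description. For Klk14 the nearest were Rps3a2 (2.17) and Pigr (2.40), followed by Rpl19-ps11, Gm10660 and Gm10800. Pigr, which carries immunoglobulins across epithelia, was at 4.34 CPM in f/f, 47.2 CPM in Nestin-Cre and under 1 CPM in the other 4 libraries. The f/f (Nestin) CPM was 9.19% of the Nestin-Cre CPM for Pigr, 9.86% for Rps3a2, 5.40% for Rpl19-ps11, 10.05% for Gm10660 and 2.41% for Gm10800, and the limit given for Klk14 holds for these genes too. For Klk8 the nearest were Sfn (0.24), Mafa (0.25), Ormdl2, Nradd and Ino80b. For Klk6 they were Gm10134 (1.06), Gm5617, Tmprss6, Tlr12 and 3100002H09Rik, and Tmprss6, a membrane serine protease, was at 0.535, 0.0288, 0.655, 0.806, 0.595 and 1.66 CPM in f/f (Nestin), Nestin-Cre, f/f (Olig2), Olig2-Cre, WT and Fto Tg.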

How the data were processed

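RNA-seq counts of 6 libraries, 1 per group, were analysed. The authors deposited raw read counts for each gene. Per the study's methods and processing notes, reads shorter than 35 bases were discarded, the rest were aligned to mm10 with TopHat2 (2.0.9 in the processing notes), uniquely mapped reads of mapping quality 20 or more were kept, and HTSeq 0.6 counted them in union mode without strand on Ensembl release 68 genes. Reads that matched several kallikrein copies were thus lost. Reads were paired-end according to the methods, while the labels allow either mode.

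Groups came from the genotype labels and titles. The 8 members and all gene lists were chosen with earlier results of these data known. Counts were divided by the library total. Genes with at least 10 counts over a pair were tested with the MARS formulas of DEGseq, rewritten in Python 3.11.15 and tested on simulated data, with a pseudocount of 0.5 and Benjamini-Hochberg adjustment over all genes tested. Since the Nestin-Cre pair chose Klk14, calls of members in it are a description. Under 10 counts is a low count, and 3 counts (0.0845 to 0.161 CPM) was the floor. Alternatives were TMM (edgeR 4.0.16), DESeq2 1.42.0 size factors, totals without mitochondrial genes, a filter of 1 count, a pseudocount of 1, another control library, adjustment for GC content and length, and an exact test (edgeR) whose dispersion came from the 3 controls. This dispersion was common to all genes.

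Genes named were the members, other kallikreins with 10 counts in a library, 5 genes on each side of Klk14, the 5 most similar in pattern to Klk14, Klk6 and Klk8, the altered genes Prrc2a and Fto, and up to 4 called genes per list by size of log2 ratio in the Olig2-Cre or Fto pair, of which some are not reported here. Klk1, F2r, Muc19 and the place of Klk14 among the largest rises were chosen after values were seen. Positions, exon lengths and transcripts came from GENCODE M21. RefSeq promoter stretches matched all 8 members.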

Additional observations from a re-analysis of the deposited data

Results flagged for a closer look

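Klk6 and Klk7 had log2 ratios of opposite sign in the 2 Prrc2a deletions, with 1 library each, and the difference was not tested. The log2 ratio of Klk6 was -3.81 with Nestin-Cre and 1.19 with Olig2-Cre, and the first rests on 1 count in the Nestin-Cre library. The log2 ratio of Klk7 was 0.91 with Nestin-Cre and -0.52 with Olig2-Cre, from 9 to 32 counts per library. With the controls of the 2 experiments exchanged, the Klk7 ratios turned to -1.15 and 1.54.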

How the results depend on the processing

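No paired analysis was possible because each group had 1 library and the labels gave no replicate numbers. For the same reason no replicate could be left out. Of the 64 member ratios recomputed per pair over 8 alternatives, the sign held for 59 with Nestin-Cre, 55 with Olig2-Cre and 57 with Fto Tg. The filter of 1 count returned the same member ratios, so its signs could only hold. The exact test used the same library totals and its ratios differed little. In the Nestin-Cre pair 11796 genes were called, and 5552 with the edgeR exact test. With TMM scaling that pair had 5113 higher and 5535 lower calls, against 2097 and 9699 with library totals. In the Olig2-Cre pair 2104 genes were called, against 3567 with the other control library, 19 with the exact test and 1207 after adjustment for GC content and length. In the Fto pair 2796 were called, against 1637 after that adjustment and 27 with the exact test.

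Between 0 and 2 members were called in the Olig2-Cre pair: 2 with the other control library, Klk14 (lower, -3.74) and Klk6 (higher, 1.61), and 0 otherwise. In the Fto pair 2 were called, and 1, Klk6, with the other control library, after adjustment or with the exact test. With the other control library the log2 ratio changed sign in the Olig2-Cre pair for Klk14 (-3.74), Klk8 (0.20), Klk7 (1.54), Klk9 (-0.34), Klk10 (0.69), Klk11 (0.76) and Klk13 (-0.12), and in the Fto pair for Klk8 (-0.23), Klk7 (-0.86), Klk10 (-0.74), Klk11 (-1.16) and Klk13 (-0.27). Adjustment for GC content and length changed it for Klk10 in the Nestin-Cre pair (0.83), for Klk9 in the Nestin-Cre (0.078) and Olig2-Cre (-0.10) pairs, for Klk13 in the Olig2-Cre (-0.033) and Fto (-0.055) pairs, and for Klk14 in the Fto pair (-0.17). Klk10 in the Nestin-Cre pair was -0.49 with library totals, 0.18 with TMM and 0.22 with DESeq2 size factors. Klk7 in that pair was 0.91, and -1.15 with the other control library. Klk6 in the Fto pair was 2.70, and 1.44 with the other control library. The Klk14 ratio in the Nestin-Cre pair lay between 4.49 and 8.60, the highest with the other control library. The cause of these shifts was not tested. With under 60 counts in most libraries, ratios of the 6 low members were imprecise.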
